A study of Mus musculus with 7 samples.

Results

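Glutathione peroxidases and other selenoproteins are described here through 10 genes taken by name: Gpx1, Gpx3, Gpx4, Selenop, Selenow, Selenof, Selenos, Selenot, Selenok and Sephs2. All 10 were found among the 14641 genes of the count table, and all 10 passed the filter on low counts. The naming rule used no measured value, though the members were chosen with earlier results of these data known. RNA was sequenced from whole heart lysate of male C57BL/6J mice, with 1 library per mouse. The 3 mNrf2-TG mice (replicates 17, 18 and 19) carried a full-length Nrf2 transgene of mouse sequence behind the αMHC promoter, which drives a transgene in cardiomyocytes, and the 4 NTG mice (replicates 1 to 4) were non-transgenic littermates without it. The labels give 6 months of age for the mNrf2-TG hearts, the methods 6 to 7 months and the design text 7 to 8 months. The comparison asks how the selenoprotein transcripts of the heart differ when Nrf2, a transcription factor that drives antioxidant genes, is raised in cardiomyocytes.

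Selenoproteins carry selenocysteine, an amino acid with selenium in place of the sulfur of cysteine, and many of them use it to reduce peroxides, disulfides or oxidized methionine. Selenocysteine is inserted at a UGA codon, which otherwise ends translation, with the help of a hairpin in the 3′ untranslated region, a dedicated tRNA and a set of protein factors. In the heart, Gpx1 and Gpx4 are the selenoenzymes best known for removing hydrogen peroxide and lipid hydroperoxides, and selenium shortage in the diet is known to damage heart muscle.

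The recoded codon was located in each member because it is the feature that the 10 genes have in common. GENCODE M21 (GRCm38) marks an in-frame TGA in the coding sequence of all 10, with 1 such codon in 9 members and 10 in Selenop. The coding sequence around it is shown for the 3 glutathione peroxidases, which are a family, for Selenow, and for Selenos and Selenok, where the codon falls near the end of the protein. Capitals mark the TGA, and each line runs 5′ to 3′ on the coding strand.
Gpx1: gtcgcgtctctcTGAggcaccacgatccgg
Gpx3: gtagccagctacTGAggtctgacagaccaa
Gpx4: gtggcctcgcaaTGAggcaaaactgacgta
Selenow: tattgtggagctTGAggctataagcccaag
Selenos: aggggcccatcatctggcggcTGAaactaa
Selenok: cctccaatggctggtggaTGAggaaggtaa
The 3 peroxidases share TGAGG at this place, as do Selenow, Selenok and, not shown, Selenot and Sephs2. The base after the first TGA was G in these 7 members, A in 2 and T in 1. The codon is number 47 of 201 in Gpx1 (chr9:108339451-108339453), 73 of 226 in Gpx3 (chr11:54907256-54907258) and 129 of 253 in the longest annotated form of Gpx4 (chr10:80054737-80054739). In Selenow it is codon 13 of 88 (chr7:15920464-15920466, minus strand), which leaves most of the protein behind it. In Selenos it is codon 189 of 190 (chr7:66088844-66088846) and in Selenok 92 of 94 (chr14:29973440-29973442), so that almost the whole protein is made before the ribosome meets it. The first TGA lies upstream of the last exon junction in 8 members, from 5 bases upstream in Selenok and 78 in Selenof to 470 in Selenot. In Selenos it lies in the last exon, and Sephs2 has a single exon. A TGA well upstream of the last junction is known as background to expose some selenoprotein mRNAs to nonsense-mediated decay when selenium is short, and no selenium measurement was analysed here.

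The libraries held between 6534684 and 8405857 counts, and the 10 genes took 0.178% to 0.191% of them in the NTG hearts and 0.233% to 0.254% in the mNrf2-TG hearts. Levels are given as normalized counts, which are counts scaled by TMM to a common library size of 7527915. Log2FC is mNrf2-TG against NTG, and adjusted p-values are from edgeR's quasi-likelihood test with Benjamini-Hochberg adjustment over the 14637 genes tested. The labels do not say which hearts came from the same litter. Nfe2l2, the Nrf2 gene itself, averaged 1114 ± 281 (SD, n = 4) in NTG and 11480 ± 658 (SD, n = 3) in mNrf2-TG hearts, with the transgene's reads included, and every mNrf2-TG library stood above every NTG library. NTG replicate 3 stood apart for some cardiomyocyte, smooth muscle, skeletal muscle and unfolded protein response genes, and the values without it are given beside the lists it touches.

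At an adjusted p under 0.05, 6 of the 10 members were higher in mNrf2-TG hearts, namely Gpx1, Gpx3, Gpx4, Selenow, Selenof and Sephs2. Over all genes tested 8.48% were higher by this rule. Selenos was lower, as were 8.73% of all genes. Selenop, Selenot and Selenok did not pass. The median Log2FC of the 10 was 0.30, beside 0.0012 over all genes tested. The groups did not overlap for the same 7 genes, 6 with every mNrf2-TG library above and 1 with every mNrf2-TG library below, where 15.0% of all genes were separated upward and 14.7% downward, 29.7% in all. No member passed a fold of 2, which 5.65% of all genes did at an unadjusted p under 0.05. The folds of the 6 higher members ran from 1.23 for Gpx1 and Selenof to 1.71 for Gpx3. In bulk hearts, fewer cells of a type and less RNA per cell cannot be told apart.

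**Figure D1:**
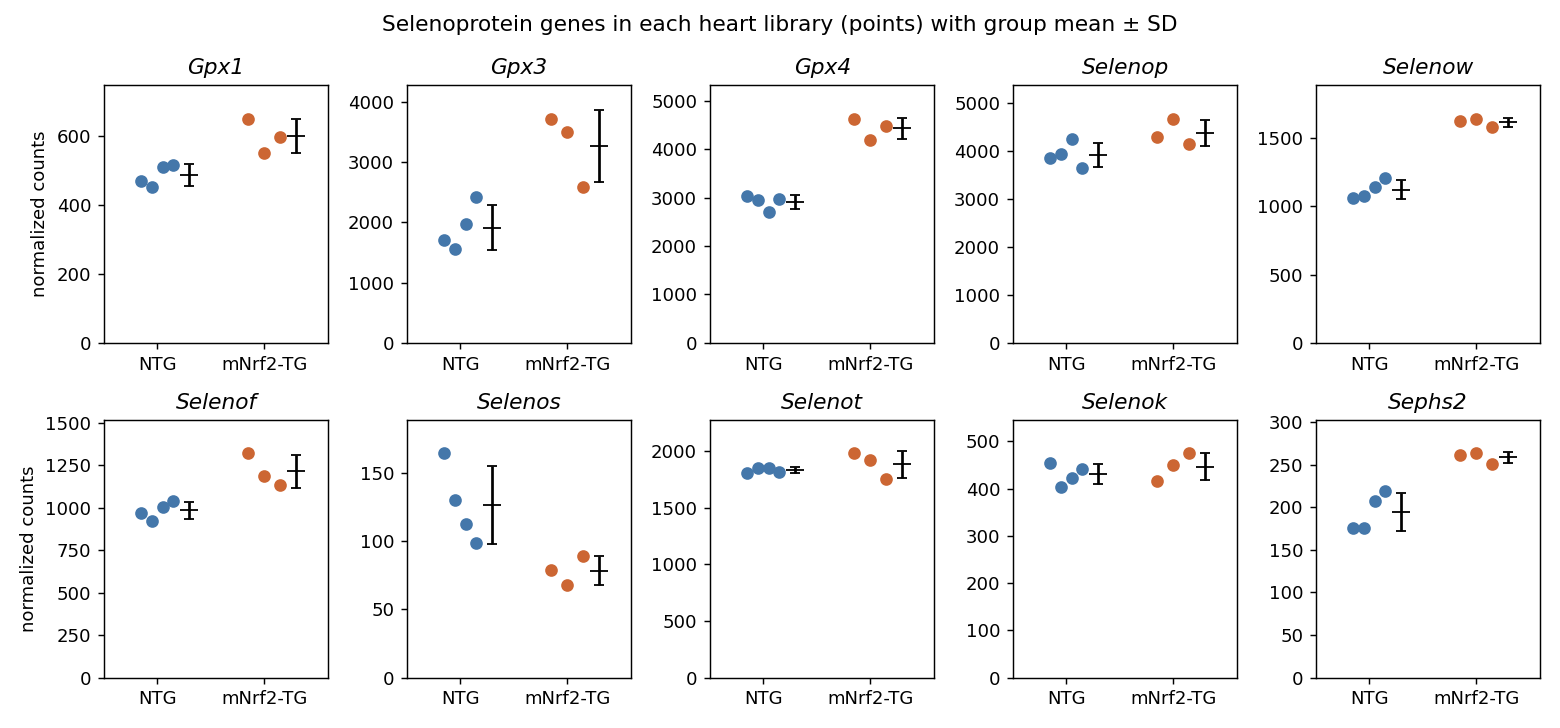
Normalized counts of the 10 selenoprotein genes, 1 panel per gene with its own axis from 0, in 4 NTG libraries (blue) and 3 mNrf2-TG libraries (orange); bars are the group mean ± SD. The mNrf2-TG points lie above the NTG points for Gpx1, Gpx3, Gpx4, Selenow, Selenof and Sephs2, and below them for Selenos, while the ranges of the groups overlap for Selenop, Selenot and Selenok.

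The glutathione peroxidases use reduced glutathione to turn peroxides into water or alcohols. All 3 selenium-containing members measured were higher in mNrf2-TG hearts, to different extents. Gpx4 (chr10:80047166-80056439, plus strand) encodes the enzyme that reduces lipid hydroperoxides inside membranes and so holds back ferroptosis. It had 3038, 2944, 2700 and 2979 normalized counts in NTG replicates 1 to 4, against 4633, 4191 and 4470 in mNrf2-TG replicates 17, 18 and 19. The lowest mNrf2-TG heart was well above the highest NTG heart. The means were 2915 ± 149 (SD, n = 4) and 4431 ± 223 (SD, n = 3), a Log2FC of 0.60 (SE 0.0681, adjusted p = 0.000577), or 1.52-fold. A pseudogene, Gpx4-ps2, shares 34.7% of the 50-base stretches of Gpx4, so reads from these stretches have more than 1 place to align and the Gpx4 count carries that uncertainty.

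Gpx3 (chr11:54902453-54910377, plus strand) encodes the secreted peroxidase of plasma and extracellular fluid. Its normalized counts were 1704, 1566, 1967 and 2423 in NTG hearts and 3725, 3496 and 2596 in mNrf2-TG hearts. The groups were separate by a narrow margin, between NTG replicate 4 and mNrf2-TG replicate 19. The mean went from 1915 ± 377 (SD, n = 4) to 3272 ± 597 (SD, n = 3), with a Log2FC of 0.77 (SE 0.159, adjusted p = 0.0100). Gpx3 had the highest Log2FC of the 10 members and also the widest spread among mNrf2-TG hearts, a coefficient of variation of 18.2%.

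Gpx1 (chr9:108338903-108340343, plus strand) encodes the abundant peroxidase of cytosol and mitochondria that removes hydrogen peroxide. It had 470.2, 451.9, 509.5 and 515.9 normalized counts in NTG hearts and 650.0, 549.9 and 597.4 in mNrf2-TG hearts. The groups did not overlap, but the gap between them was smaller than the range within either. The Log2FC was 0.30 (SE 0.0842, adjusted p = 0.0368), or 1.23-fold, from 487 ± 30.9 (SD, n = 4) to 599 ± 50.1 (SD, n = 3). The call was lost without NTG replicate 1 (adjusted p = 0.0861), NTG replicate 2 (0.0909), mNrf2-TG replicate 17 (0.140) or mNrf2-TG replicate 19 (0.0831), and the Log2FC stayed between 0.24 and 0.36.

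The balance among the 3 peroxidases was also read within each library, where scaling between libraries plays no part, as a description chosen after the values were seen. The count of Gpx4 was 6.46, 6.51, 5.30 and 5.77 times that of Gpx1 in NTG hearts and 7.13, 7.62 and 7.48 times in mNrf2-TG hearts, without overlap. The ratio of Gpx3 to Gpx1 was 3.62, 3.47, 3.86 and 4.70 in NTG and 5.73, 6.36 and 4.34 in mNrf2-TG hearts, and here mNrf2-TG replicate 19 fell below NTG replicate 4. The ratio of Gpx4 to Gpx3 overlapped as well, at 1.23 to 1.88 and 1.20 to 1.72. Gpx7 and Gpx8, which have cysteine where the others have selenocysteine and reside in the ER, were not called. Gpx7 had 43.3 ± 9.72 (SD, n = 4) and 55.8 ± 17.8 (SD, n = 3) normalized counts (adjusted p = 0.339), and Gpx8 had 243 ± 27.4 and 255 ± 7.16 (adjusted p = 0.693).

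Selenop (chr15:3268547-3280508, plus strand) encodes selenoprotein P, the secreted carrier that brings selenium to tissues and the member with 10 TGA codons. The first is codon 59 of 380 and the last codon 377, and 9 of the 10 lie in the last exon, which encodes the selenium-rich tail. The first and the second are shown, since they stand for the redox site and for the tail.
Selenop, first TGA: cttcaagccagcTGAtacttgtgtcttctg
Selenop, second TGA: cacttagagagcTGAgacaccacagcaagt
Selenop had 3849, 3935, 4239 and 3640 normalized counts in NTG hearts and 4286, 4667 and 4135 in mNrf2-TG hearts. Replicate 19 lay inside the NTG range. The Log2FC of 0.16 (95% interval -0.01 to 0.32) did not pass (adjusted p = 0.175), and the lowest adjusted p under any alternative was 0.0784, without NTG replicate 3. Part of the gene, 15.4% of its exon bases, lies opposite Ccdc152, which averaged 2.19 and 5.31 normalized counts. The sources used here do not say how reads from the shared stretch were assigned. Their part in the Selenop count was not tested. Selenop took 25.3% to 29.9% of the members' summed normalized counts in NTG hearts and 22.6% to 25.3% in mNrf2-TG hearts.

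Selenoprotein P is taken up by receptors of the LDL receptor family. Lrp8, the uptake receptor of brain and testis also known as ApoER2, was higher in mNrf2-TG hearts at low counts. It had 11, 3, 5 and 2 raw counts in NTG and 24, 27 and 24 in mNrf2-TG libraries, with a Log2FC of 2.17 (SE 0.464, adjusted p = 0.0119). Without NTG replicate 1 the Log2FC was 2.89 (adjusted p = 0.00363), and it was called under all 14 alternatives. Lrp1 had 971 ± 284 (SD, n = 4) and 1069 ± 149 (SD, n = 3) normalized counts (adjusted p = 0.668). Lrp2, the kidney receptor, had at most 9.96 normalized counts in any library.

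Selenow (chr7:15917208-15922402, minus strand) encodes a small redox protein of the cytosol that is abundant in skeletal muscle and heart. Its mNrf2-TG hearts were closer to one another than for any other member. The normalized counts were 1058, 1073, 1141 and 1210 in NTG hearts and 1621, 1642 and 1579 in mNrf2-TG hearts, with a coefficient of variation of 1.99% in the latter. The groups stood far apart relative to their ranges, with a Log2FC of 0.53 (SE 0.0696, adjusted p = 0.00133), or 1.44-fold. Gpx3, Gpx4 and Selenow were called under all 14 alternatives, with adjusted p no higher than 0.0488, 0.00465 and 0.00882.

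Selenof, Selenos, Selenok and Selenot encode proteins of the endoplasmic reticulum (ER), and 1 was higher, 1 was lower and the other two were not called. Selenof (chr3:144570304-144597680, plus strand) encodes a protein that binds the glycoprotein folding sensor UGGT. It had 969, 924, 1004 and 1038 normalized counts in NTG hearts and 1319, 1188 and 1132 in mNrf2-TG hearts, without overlap. The Log2FC was 0.30 (SE 0.0765, adjusted p = 0.0240). The call was lost without NTG replicate 1 (adjusted p = 0.0593), NTG replicate 2 (0.0630), mNrf2-TG replicate 17 (0.0972) or mNrf2-TG replicate 18 (0.0568), with a Log2FC between 0.24 and 0.35. The UGGT genes themselves, Uggt1 and Uggt2, had Log2FC of -0.02 and 0.08 and were not called.

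Selenos (chr7:66079649-66089405, plus strand) encodes an ER membrane protein that helps carry misfolded proteins out for degradation by recruiting the ATPase p97, the product of Vcp. It was the 1 member that fell. The normalized counts were 164, 131, 112 and 98.6 in NTG hearts and 78.6, 68.0 and 89.0 in mNrf2-TG hearts. The highest mNrf2-TG heart, replicate 19, was just under the lowest NTG heart, replicate 4, and the NTG hearts were spread more widely than for any other member, with a coefficient of variation of 22.5%. The mean was 127 ± 28.5 (SD, n = 4) against 78.5 ± 10.5 (SD, n = 3), a Log2FC of -0.68 (SE 0.184, adjusted p = 0.0310), or 0.624 times the NTG level. The raw counts behind it were low, 99 to 145 in NTG libraries and 69 to 98 in mNrf2-TG libraries. The call was lost without NTG replicate 1 (adjusted p = 0.0693), NTG replicate 2 (0.0793), mNrf2-TG replicate 17 (0.0910), mNrf2-TG replicate 18 (0.107) or mNrf2-TG replicate 19 (0.0523), while the Log2FC stayed between -0.78 and -0.53.

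Selenok (chr14:29968308-29975662, plus strand) encodes another small ER membrane protein, which works with the palmitoyltransferase of Zdhhc6. It had 454, 404, 423 and 442 normalized counts in NTG hearts and 417, 449 and 475 in mNrf2-TG hearts, fully intermixed. The Log2FC was 0.05 (95% interval -0.12 to 0.23, adjusted p = 0.684). Selenot (chr3:58576636-58593133, plus strand), a thioredoxin-like ER protein, had the least variable level among NTG hearts, 1806, 1853, 1851 and 1815 normalized counts, with a mean of 1831 ± 24.1 (SD, n = 4). The mNrf2-TG values of 1978, 1921 and 1750 fell on both sides of them, with a Log2FC of 0.04 (95% interval -0.11 to 0.19, adjusted p = 0.725). These intervals leave out a change of 1.5-fold in either direction for both genes.

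Since Selenos and Selenok act in ER-associated degradation, the other genes of that pathway and of the unfolded protein response were read beside them. Of 14 ER-associated degradation genes and ER partners, 1 was higher and 1 was lower, with a median Log2FC of -0.03. Vcp rose from 1961 ± 150 (SD, n = 4) to 2457 ± 93.3 (SD, n = 3) normalized counts (Log2FC 0.33, adjusted p = 0.0176), a call lost without mNrf2-TG replicate 17 (adjusted p = 0.0558) or 18 (0.0655). Herpud1, an ER stress-induced partner of the degradation complex, fell from 3127 ± 698 to 1992 ± 192 (Log2FC -0.65, adjusted p = 0.0178), a call lost without mNrf2-TG replicate 17 (adjusted p = 0.0776). NTG replicate 3 raised the NTG mean of Herpud1, with 4115 normalized counts against 2471 to 2979 in the other NTG hearts. Under the alternatives the Log2FC of Herpud1 ran from -0.74 to -0.49. The partners that sit with Selenos in the membrane were not called, with Log2FC of 0.26 for Derl1 (adjusted p = 0.129) and -0.07 for Derl2 (adjusted p = 0.775).

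Of 15 unfolded protein response genes, 4 were lower and 0 were higher, and their median Log2FC was -0.31. Dnajb9, an ER co-chaperone, had 724 to 779 normalized counts in NTG hearts and 456 to 506 in mNrf2-TG hearts (Log2FC -0.66, SE 0.0705, adjusted p = 0.000423), and held under all 14 alternatives. Xbp1, a transcription factor of this response, had a Log2FC of -0.34 (adjusted p = 0.0265), and the chaperones Hsp90b1 and Hspa5 had -0.54 (adjusted p = 0.0352) and -0.46 (adjusted p = 0.0471). These 3 calls were lost in 5, 6 and 6 of the 7 fits that left out a library, with adjusted p up to 0.103, 0.127 and 0.156, while over all alternatives the Log2FC ran from -0.38 to -0.28, from -0.67 to -0.45 and from -0.57 to -0.36. Hspa5 also lost its call with limma-voom (adjusted p = 0.0534), with library totals as the scale (0.0654) and with filterByExpr, where it sat at the threshold. NTG replicate 3 had 6213 normalized counts of Hspa5 and 4271 of Hsp90b1, inside the mNrf2-TG range, and its summed level of the list was 17580, against 22900 to 24410 in the other NTG hearts and 15270 to 17650 in the mNrf2-TG hearts. Without it the adjusted p was 0.000561 for Hsp90b1 and 0.00163 for Hspa5, and Manf (0.00137), Pdia4 (0.0131) and Pdia6 (0.0201) were called lower as well.

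**Figure D2:**
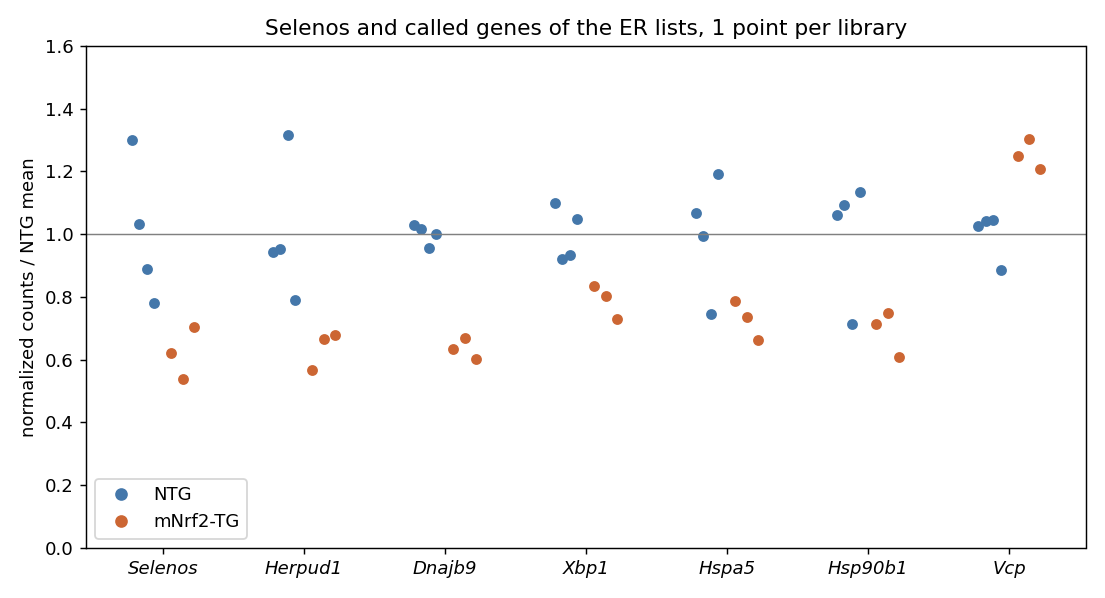
Normalized counts of Selenos and of the called genes of both ER lists, each divided by its NTG mean, with 1 point per library (blue NTG, orange mNrf2-TG). Selenos, Herpud1, Dnajb9 and Xbp1 have every mNrf2-TG point under every NTG point, Vcp has them above, and for Hspa5 and Hsp90b1 NTG replicate 3 lies among the mNrf2-TG points.

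Sephs2 (chr7:127271879-127274055, minus strand) makes selenophosphate, the selenium donor for selenocysteine, and is itself a selenoprotein, with its TGA at codon 63 of 452. It had 176, 175.5, 207 and 219 normalized counts in NTG hearts and 261.5, 263 and 251 in mNrf2-TG hearts. The mNrf2-TG hearts were close together and all above the NTG hearts, with a Log2FC of 0.41 (SE 0.102, adjusted p = 0.0229), or 1.33-fold. The call was lost without NTG replicate 1 (adjusted p = 0.0583), NTG replicate 2 (0.0590), mNrf2-TG replicate 17 (0.0733) or mNrf2-TG replicate 18 (0.0718), and the Log2FC stayed between 0.37 and 0.48. An annotated transcript on the opposite strand, Gm44729, covers 792 exon bases of Sephs2, and since the use of strand in counting is not given in the sources used here, its reads cannot be told apart from those of Sephs2.

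The rest of the machinery that makes and inserts selenocysteine was called in 1 of 12 genes, with a median Log2FC of 0.02. That gene was Rpl30, a ribosomal protein that also binds the selenocysteine hairpin, with 276 ± 10.6 (SD, n = 4) and 332.5 ± 15.0 (SD, n = 3) normalized counts (Log2FC 0.27, adjusted p = 0.0407). Its call was lost with DESeq2 (adjusted p = 0.0775) and in each of the 7 fits that left out a library (adjusted p 0.0584 to 0.120). The dedicated factors did not pass: Secisbp2, which binds the hairpin, had a Log2FC of -0.29 (adjusted p = 0.158), and Eefsec, the elongation factor for the selenocysteine tRNA, had 0.05 (adjusted p = 0.921). Pstk and Sepsecs, which convert serine to selenocysteine on the tRNA, had -0.01 (adjusted p = 0.941) and 0.32 (adjusted p = 0.336). Sephs1, the relative of Sephs2 that lacks selenocysteine, had 0.22 (adjusted p = 0.197), and Scly, which frees selenium from selenocysteine, had 0.37 (adjusted p = 0.199), but was called without NTG replicate 3 (Log2FC 0.53, adjusted p = 0.0422).

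The selenoprotein genes outside the 10 were read by the same test. Of 14 listed, 11 were measured, and Dio1, Gpx2 and Selenov were not analysed here. In mNrf2-TG hearts 4 of the 11 were higher and 0 were lower, with a median Log2FC of 0.32. Txnrd1, the cytosolic thioredoxin reductase and a known Nrf2 target, had 571, 633, 575.5 and 503 normalized counts in NTG hearts and 4010, 3984 and 2490 in mNrf2-TG hearts, a Log2FC of 2.61 (SE 0.158, adjusted p = 8.04e-06). This was far above any Log2FC among the 10 members, of which Gpx3 had the highest at 0.77. Selenom, an ER thioredoxin-like protein, rose from 162 ± 11.7 to 225 ± 23.5 (Log2FC 0.48, adjusted p = 0.0135), a call lost without mNrf2-TG replicate 19 (adjusted p = 0.0529). Txnrd2, the mitochondrial thioredoxin reductase, had a Log2FC of 0.32 (adjusted p = 0.0331), and Msrb1, which repairs oxidized methionine, had 0.28 (adjusted p = 0.0426). Txnrd2 lost its call in 6 of the 7 fits without a library, all but the one without NTG replicate 3, and Msrb1 in all 7, with adjusted p up to 0.0887 and 0.150. DESeq2 gave Txnrd2 an adjusted p of 0.0532. Selenon was called without NTG replicate 4 (adjusted p = 0.0416, against 0.406 with all libraries), as was Txnrd3 without mNrf2-TG replicate 17 (adjusted p = 0.0416, against 0.0675). Among those not called, Dio2, an activating thyroid hormone deiodinase, ran from 15.3 to 26.8 normalized counts among NTG hearts and from 21.8 to 57.0 among mNrf2-TG hearts (adjusted p = 0.112), and Dio3 had at most 1.99.

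**Figure D3:**
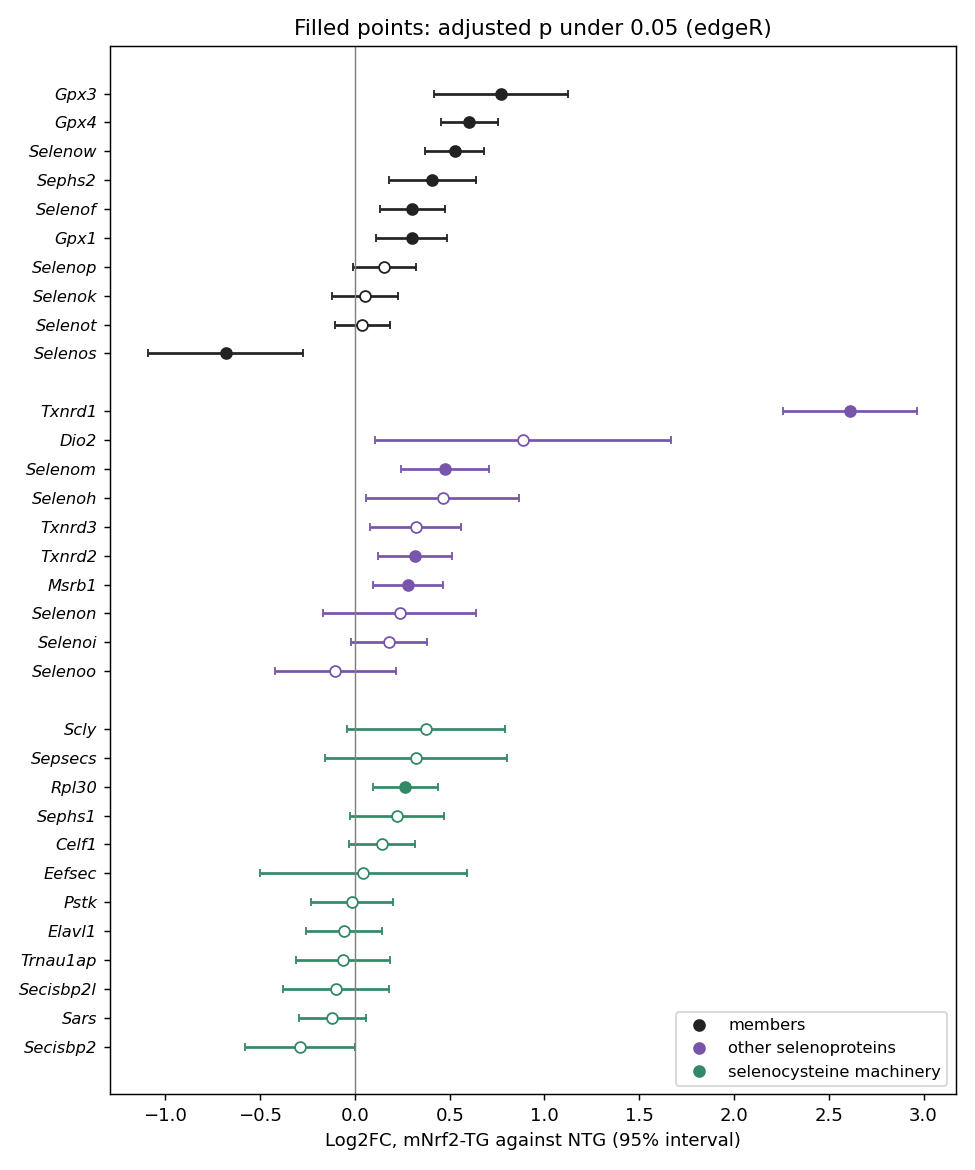
Log2FC of mNrf2-TG against NTG with its 95% interval for the 10 members (black), the other selenoproteins (purple, Dio3 left out for its near-zero counts) and the selenocysteine machinery (green); filled points have an adjusted p under 0.05. Filled points lie at or under 0.77 for the members, Txnrd1 stands at 2.61, and in the machinery Rpl30 alone is filled.

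The partner systems of the peroxidases were read from lists of the same kind. Glutathione is the electron donor of the peroxidases, and 3 of 9 genes of its supply were higher and 0 were lower. Gclm, the regulatory subunit of the enzyme for the rate-limiting step of synthesis, had a Log2FC of 2.68 (adjusted p = 5.41e-06). Gsr, which returns oxidized glutathione to its reduced form, had 1.58 (adjusted p = 5.09e-05), and Gss, the last enzyme of synthesis, had 0.79 (adjusted p = 0.00162). Gclc, the catalytic subunit, had 187 ± 30.4 (SD, n = 4) and 185 ± 26.4 (SD, n = 3) normalized counts (adjusted p = 0.954). The other enzymes that remove peroxides, which use thiols or heme instead of selenium, were listed together with the sulfiredoxin gene Srxn1. The product of Srxn1 repairs overoxidized peroxiredoxins. In this list 6 of 8 genes were higher and 0 were lower, with a median Log2FC of 0.60. Srxn1 had the highest Log2FC of the list at 3.79 (adjusted p = 5.09e-05), followed by Cat, which encodes catalase, at 0.85 (adjusted p = 0.000925). Prdx1 and Prdx6, both peroxiredoxins, had 0.64 (adjusted p = 0.000311) and 0.61 (adjusted p = 0.000780), close to the 0.60 of Gpx4.

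Gpx4 is known as the guard against lipid peroxidation, and a list of genes that promote, mark or oppose this process was read beside it. Of 11 measured, 4 were lower and 0 were higher, with a median Log2FC of -0.06. Slc3a2, the heavy chain of the carrier that brings in cystine for glutathione and so opposes lipid peroxidation, had 481 to 509 normalized counts in NTG hearts and 208 to 281 in mNrf2-TG hearts (Log2FC -0.96, adjusted p = 0.000473). Ptgs2, a cyclooxygenase used as a marker of ferroptosis, had 28.9 to 35.6 and 7.26 to 9.85 (Log2FC -1.86, adjusted p = 0.00133). Its raw counts were low, 28 to 38 in NTG and 8 to 10 in mNrf2-TG libraries. Alox5, a lipoxygenase that makes lipid hydroperoxides, had 75.7 to 156 and 40.9 to 56.3 (Log2FC -1.30, adjusted p = 0.00769). Lpcat3, which puts polyunsaturated fatty acids into membrane lipids, was just past the threshold at -0.31 (adjusted p = 0.0497), and that call was lost in 6 of the 7 fits without a library (adjusted p up to 0.140) and with DESeq2, limma-voom or library totals (0.0523, 0.0521 and 0.0905). Acsl4, which activates those fatty acids, was at 0.07 (adjusted p = 0.702), and Slc7a11, the light chain of the cystine carrier, at -0.30 (adjusted p = 0.214). Tfrc, the receptor for iron uptake, was at 0.87 (adjusted p = 0.135) and was called without NTG replicate 3 (Log2FC 1.30, adjusted p = 0.00673).

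Levels of different members were compared as normalized counts per kilobase of exon, over the union of the exons annotated for each gene. In NTG hearts the order was Gpx4 at 1691 ± 86.2 (SD, n = 4), Selenow at 1522 ± 94.9, Selenop at 1378 ± 87.5 and Gpx3 at 1056 ± 208. Neighbours among these overlapped in their ranges, so their order is not firm. After a clear step came Selenot at 533 ± 7.02, Gpx1 at 338 ± 21.4, Selenok at 228 ± 11.6 and Selenof at 169 ± 8.38, each below the one before it in every NTG heart. Sephs2 at 89.3 ± 10.2 and Selenos at 85.6 ± 19.3 were lowest and overlapped each other. On this scale Gpx4 was higher than 98.9% of all genes with a length in NTG hearts, and Selenos was higher than 76.3%. In mNrf2-TG hearts Gpx3, at 1805 ± 329 (SD, n = 3), was placed above Selenop, at 1535, though these ranges overlapped, and Selenos, at 53.2, fell clear of Sephs2, at 119. The order depends on the length used. With the longest transcript as the length, Gpx4 stood at 2930 per kilobase in NTG hearts, Selenop at 1878 passed Selenow at 1522, Selenof at 364 passed Selenok at 257, and Selenos at 106 passed Sephs2 at 89.3. In mNrf2-TG hearts Selenop, at 2093, was then above Gpx3, at 2053.

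**Figure D4:**
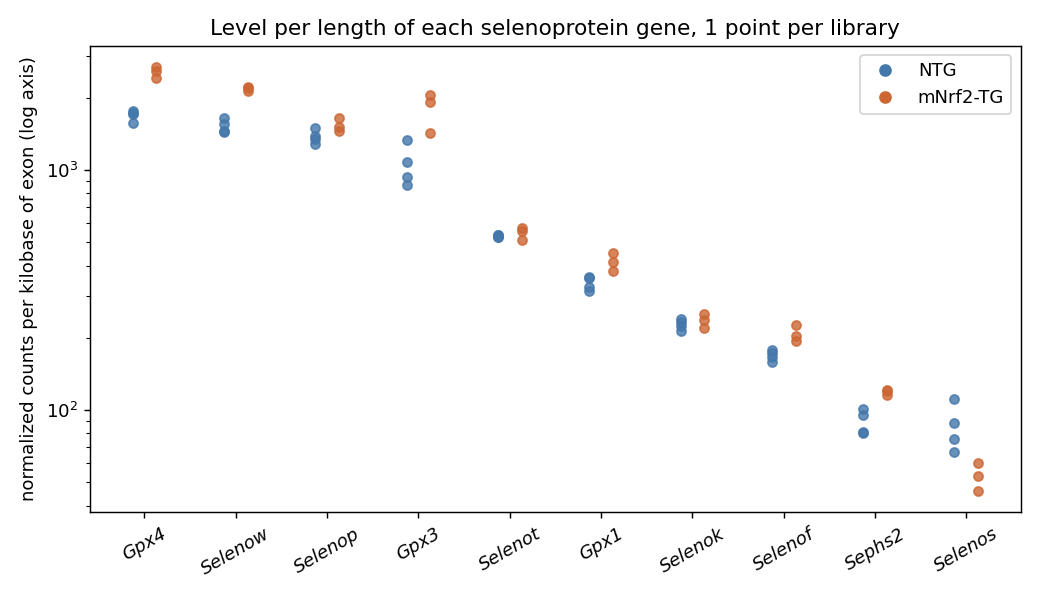
Normalized counts per kilobase of union exon length (log axis) of the 10 members in order of their NTG mean, with 1 point per library (blue NTG, orange mNrf2-TG). In NTG hearts Gpx4, Selenow, Selenop and Gpx3 form a high group with overlapping neighbours, and Sephs2 and Selenos lie lowest.

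The members' normalized counts summed to 13690, 13460, 14150 and 14380 in NTG hearts and to 18970, 18440 and 17070 in mNrf2-TG hearts. Within the mNrf2-TG group replicate 19 had the lowest value in 6 of the 10 members and replicate 17 the highest in 5. Replicate 19 was also the lowest of the 3 for Txnrd1, Gclm and Srxn1, while its Nfe2l2 level of 11660 lay between the other two. On the rlog scale, a variance-stabilized log2 value computed by the authors for each library, the same 7 members had groups without overlap, and Gpx4 ran from 11.52 to 11.63 in NTG and from 11.94 to 12.04 in mNrf2-TG hearts.

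Cell type markers moved between the groups as well, and whole heart lysate mixes all heart cells. Summed cardiomyocyte markers ran from 549800 to 619500 in the NTG group, as normalized counts, and from 449400 to 476800 in the mNrf2-TG group, with 4 of 8 lower, namely Tnni3 (Log2FC -0.53), Myl2 (-0.57), Pln (-0.25) and Myl3 (-0.24). Summed macrophage markers ran from 1759 to 2657 and from 2887 to 4094, with 6 of 10 higher, led by smallest p by Csf1r (Log2FC 1.06), C1qa (0.86), Adgre1 (1.19) and C1qb (1.10). Summed fibroblast markers ran from 8821 to 11490 and from 12810 to 13610, with 5 of 8 higher, led by Col1a2 (Log2FC 0.83), Lum (1.05), Col3a1 (0.77) and Col1a1 (0.77). Endothelial markers had 1 of 8 higher (Kdr, Log2FC 0.39) and 2 lower (Pecam1, -0.47, and Cdh5, -0.37), and smooth muscle and pericyte markers 1 of 8 lower (Rgs5, -0.35). Skeletal muscle markers had 3 of 8 lower (Myh4, -0.97, Myh1, -0.81, and Ckm, -0.39). These 3 differed widely in level, with NTG means of 369, 465 and 13850 normalized counts, and which cells of the heart they came from was not tested. Atrial markers had 1 of 3 higher (Nppa, 1.47), a gene that hypertrophied ventricle also expresses. Red blood cell markers had 0 of 7 called and adipocyte markers 0 of 4. Without NTG replicate 3, Tnnt2 was called lower, and Dcn, Postn, Mrc1, Myh2 and Myl4 were called higher. So was Acta2, at a Log2FC of 2.53 against 1.36 with all libraries, and Acta1, whose direction turned from -0.60 to 0.41. Without NTG replicate 4, Pdgfrb was called lower (Log2FC -0.54, adjusted p = 0.0327), and Myl4 was called higher without mNrf2-TG replicate 17. The calls of Pln, Myl3, Col1a1, Col3a1, Tcf21, Cdh5, Kdr, Rgs5, Ckm, Myh1 and Myh4 were lost without 1 or more of the libraries. The liver is the main source of Selenop in plasma, and 2 of its 6 listed markers were measured. These, Ttr and Serpina1a, together had at most 6.19 normalized counts in any library. The part of these marker shifts in the members' values was not tested.

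The promoters of the 10 members were searched for TGACNNNGC, the core of the antioxidant response element that Nrf2 binds, on both strands from 250 bases before to 50 bases after each start in RefSeq (GRCm38.p6). A match was found in 1 of 10 members, Selenok, 44 to 36 bases before the RefSeq start at 29968380 (chr14:29968336-29968344, plus strand). The match lies inside the GENCODE span of the gene, which begins at 29968308. It is shown with 10 bases on each side and the match in capitals.
Selenok promoter: gttacttgtgTGACTGGGCggaacctcta
A match was present in 16.7% of the 11680 genes of the count table with a promoter entry, and in 1 of the 14 other selenoproteins. The match is a description of letters in this window, and the window leaves out distant elements. Selenok was among the members that were not called.

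Each heart was also left out in turn. With 1 of the 7 omitted, fewer genes were called in 6 of the 7 fits, and the count of higher members ran from 3 to 6 and the count of lower members from 0 to 1. The 3 that stayed at every omission were Gpx3, Gpx4 and Selenow. The count of higher members was 3 without NTG replicate 1, NTG replicate 2 or mNrf2-TG replicate 17, and all genes called fell from 2519 to 1603, 1597 and 1373 in the same fits. No member changed direction under any of the 14 alternatives.

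**Figure D5:**
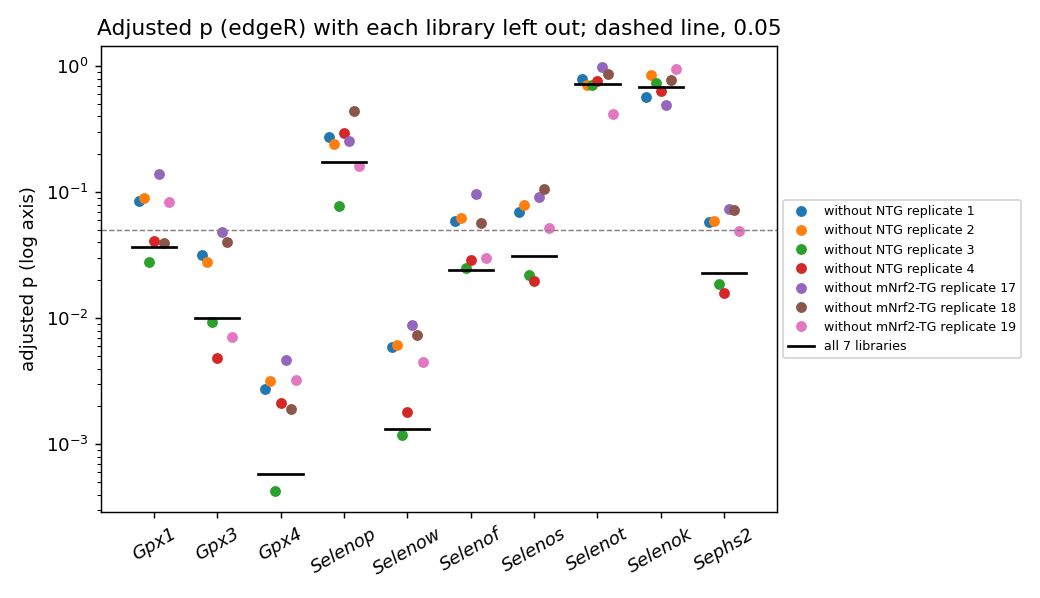
Adjusted p (log axis) of each member with all 7 libraries (black bars) and with 1 library omitted at a time (coloured points); the dashed line marks 0.05. Gpx3, Gpx4 and Selenow stay under the line at every omission, Selenop, Selenot and Selenok stay above it, and Gpx1, Selenof, Selenos and Sephs2 cross it.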

How the data were processed

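Poly(A) RNA from whole heart lysate (4 NTG mice, 3 mNrf2-TG mice) was read as single ends of 50 bases from stranded libraries. Per the submitters' processing notes and the methods, the authors aligned reads with Novoalign 2.08.01 to mm10 (GRCm38) with Ensembl annotation (hg19 is named once). The counting program and its use of strand are not given in the sources used here. The authors deposited raw counts per gene, and log2 rlog values from DESeq2 1.32.0 that were read here for ranges only. The deposited columns of the authors' own comparison, namely a mean signal of normalized counts, log2 fold changes, a test statistic (score) and p-values, were not used.

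Groups came from the labels. Of 14665 entries, 24 that repeated a gene identifier were dropped, which left 14641 genes. Genes with a summed count above 1 (14637) were tested with edgeR 4.0.16 (R 4.3.3), using TMM, quasi-likelihood fits with genotype as the only term, and Benjamini-Hochberg adjustment. The SE was taken from the Log2FC and its F statistic, and intervals are 95%. No batch term was added, since the labels name no batch. Where the sources do not say that hearts were prepared separately, p-values measure the spread between these libraries. Recovery of known changes was tested on simulated counts.

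The members and gene lists were chosen with earlier results of these data known. All 10 members and Nfe2l2 are named, and from each other list the called genes, up to 4 by smallest p; further genes are named as known partners of a member, chosen after their values were seen. 1 further gene chosen for the ER-associated degradation list is not reported here and is left out of its counts. Gene models were GENCODE M21, and promoters were RefSeq (GRCm38.p6). Alternatives were DESeq2 1.42.0, limma-voom 3.58.1, DESeq2 size factors or library totals as the scale, 3 other filters (filterByExpr, none, and at least 10 counts in every library of a group), and leaving out each library.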

Additional observations from a re-analysis of the deposited data

Results flagged for a closer look

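For each of the 162 genes of the lists that had counts in the NTG hearts, members and Nfe2l2 included, the gap between the highest or lowest of the 4 NTG libraries and its neighbour was divided by the group's range. This ratio passed the critical value of 0.829 in 13 genes, and chance alone flags about 1 in 20 such groups. No member was among them, and NTG replicate 3 was the library apart in 8 of the 13.

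NTG replicate 3 was high for Acta1 (ratio 0.929, 9172 normalized counts against 1568 to 2108 in the others), Actn2 (0.899, 18760 against 15660 to 15970), Myh6 (0.881, 243000 against 156500 to 166800) and Acta2 (0.876, 7949 against 1027 to 1886). It was also high for Ern1 (0.857, 218 against 88.6 to 107), Postn (0.856, 570.3 against 371.5 to 400.0) and Ckm (0.832, 16490 against 12580 to 13230), and low for Myl3 (0.832, 43590 against 47010 to 47700). NTG replicate 4 was high for Elavl1 (0.915, 379 against 314 to 320) and Lrp2 (0.896, 9.96 against at most 1.03), and low for Vcp (0.877, 1738 against 2013 to 2051) and Tnnt3 (0.859, at 0 against 3.09 to 3.60). NTG replicate 1 was high for Gss (0.864, 132 against 107 to 110.5).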

How the results depend on the processing

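All 10 members kept their direction under all 14 alternatives, and every loss of a member's call came from leaving out a library. Of the 140 member values under alternatives, 123 kept their side of the threshold and 17 lost it. With a library left out, higher members numbered 3 to 6, lower members 0 to 1, all genes called 1373 to 2950, called other selenoproteins 1 to 3, and called machinery genes 0 to 1. With the DESeq2 Wald test, 0 machinery genes were called at the adjusted threshold, where Rpl30 had an adjusted p of 0.0775, and 3 other selenoproteins remained past it. With library totals as the scale the median Log2FC of all genes moved from 0.0012 to 0.0309. No paired analysis was possible because the labels do not say which hearts came from the same litter. Raw counts of 69 to 145 per library limit Selenos, 2 to 27 limit Lrp8, and 8 to 38 limit Ptgs2.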
